A study of Mus musculus with 14 samples.

Results

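The 10 genes described here are TGF-beta genes of the mouse that may bear on fibrosis of the irradiated heart: the ligands Tgfb1, Tgfb2 and Tgfb3, the receptors Tgfbr1, Tgfbr2 and Tgfbr3, the latent TGF-beta binding protein genes Ltbp2, Ltbp3 and Ltbp4, and the matrix gene Tgfbi. They were taken by gene name from a count table of 54532 genes. All 10 had enough counts to be tested, among 16034 tested genes. RNA of heart tissue from male C57BL/6J mice, labelled WT and 8 weeks old at irradiation, was sequenced in 14 libraries. IRR_1d (n = 3) and IRR_6w (n = 4) received 30 Gy of 60Co γ-rays to the front of the chest under pentobarbital, with the rest of the body behind lead, and were collected after 1 day and after 6 weeks. Control_1d (n = 3) and Control_6w (n = 4) were not irradiated and were collected at the same times. Each library held 13336746 to 16837265 counts.

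TGF-beta ligands are secreted in a latent form, held by their own propeptide and tethered to the matrix by latent TGF-beta binding proteins. Integrins, proteases and thrombospondin can free the ligand, which binds the type II receptor TGFBR2. TGFBR2 then recruits and phosphorylates the type I receptor TGFBR1, which activates SMAD proteins. In heart tissue the pathway is best known for turning fibroblasts into cells that deposit collagen and fibronectin, and ionizing radiation is a textbook activator of latent TGF-beta.

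Some libraries stood apart from the rest of their group. The summed level of 10 thymus genes was 5592 CPM (counts of a gene relative to the TMM-scaled library total) in Control_6w replicate 3, against 17.69 to 99.56 in the other 13 libraries. The summed level of 6 atrial genes was 2993 CPM in IRR_6w replicate 1 and 2070 CPM in IRR_1d replicate 3, against 14.87 to 596 CPM elsewhere. These 3 are called the libraries with other tissue below. In addition, 8 testis germ cell genes summed to 36.47 to 47.99 CPM in Control_6w replicates 1 to 3, with 3 or 4 of the 8 at 0, and to at most 0.241 CPM in the other 11 libraries. The part of these transcripts in the 6 week results was not tested other than by leaving out the 3 controls. Cardiomyocyte markers, all 8 detected in every library, summed to 4759 CPM in Control_6w replicate 3, to 8621 CPM in IRR_6w replicate 1 and to at least 14650 CPM in the others. The share of tested genes without a count was 20.0% in Control_1d replicate 1, 16.8% in IRR_6w replicate 3 and 10.4% in IRR_6w replicate 4, against at most 7.41% in the others. For some results, values without 1 or more of these or other libraries are given beside them.

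None of the 10 genes was a DEG after irradiation, where DEGs were genes changed more than 2 times up or to under 0.5 of the control level, with an adjusted p under 0.05 in edgeR's quasi-likelihood test across all tested genes. Among all tested genes 0.0249% were DEGs at 1 day and 0.256% at 6 weeks. Before adjustment, 3 of the 10 genes were higher with p under 0.05 at 1 day (Tgfbr2, Ltbp2 and Ltbp3), where 1.94% of all tested genes were. None of the 3 kept an unadjusted p under 0.05 without IRR_1d replicate 3 or without the 3 libraries with many zeros. In these fits 0.626% and 1.77% of all tested genes were higher at that limit. At 6 weeks 4 were higher (Tgfb2, Tgfbr2, Ltbp3 and Tgfbi), where 5.43% of all genes were, and 2 were without IRR_6w replicate 1. With the 3 controls that held testis genes left out, which leaves 1 control assumed to vary like the other groups, none of the 10 had an unadjusted p under 0.05. No member was lower with p under 0.05 at either time, against 0.96% and 3.37% of all genes. The fold change was positive for 8 of the 10 genes at 1 day and for all 10 at 6 weeks. The median log2 fold change of the 10 was 0.51 and 0.55, beside 0.06 and -0.09 over all tested genes. Without IRR_1d replicate 3, 6 of the 10 were positive at 1 day and the median was 0.14, beside 0.04 over all genes. Without IRR_6w replicate 1, the 6 week fit gave 8 positive values and a median of 0.30, beside -0.14. Against Control_6w replicate 4 alone, 7 were positive and the median was 0.53, beside 0.09. In whole tissue, more cells of a type and more RNA per cell cannot be told apart.

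The irradiated and control libraries did not overlap for Tgfbr2 and Ltbp2 at 1 day, both higher after irradiation. At 6 weeks they did not overlap for Tgfb2, Tgfbr2, Ltbp3 and Tgfbi, again all higher. Control_6w replicate 4, the control without testis genes, is below every irradiated library there by definition, which is no separate check. Of all tested genes, 6.51% were higher and 4.15% lower without overlap at 1 day, and 4.07% higher and 1.62% lower at 6 weeks.

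**Figure D1:**
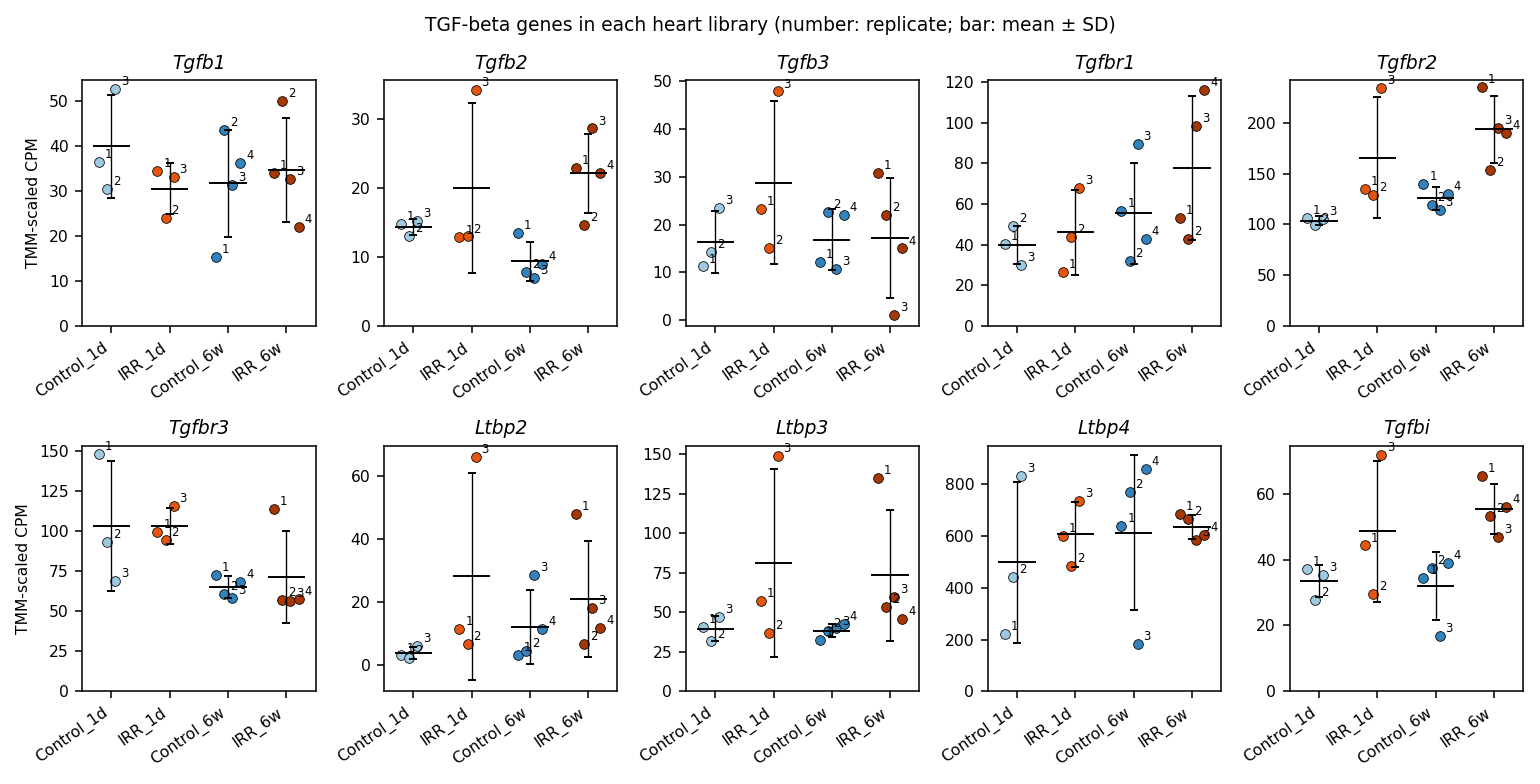
Each panel plots one gene, with the TMM-scaled CPM of every library on the y axis and the 4 groups on the x axis. Points are libraries labelled by replicate number, and bars are the group mean ± SD. IRR_1d replicate 3 is the highest library of its group for 9 of the 10 genes.

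The promoters of the 4 genes that did not overlap at 6 weeks are printed with that of Tgfb1, whose groups overlapped at both times. They are the bases before the start site in RefSeq (GRCm38.p6), 5′ to 3′ on the strand of the gene. The Tgfbi window stops 63 bases short of the RefSeq start, where the gene annotated on mm10 begins. Capitals mark matches, on either strand, to the SMAD box (letters CAGAC). They also mark the motif GGGCGG, which is bound by Sp1 proteins, and the TATAAA of a core promoter. The windows are Tgfb2 at chr1:186705990-186706239, Tgfbr2 at chr9:116175364-116175613, Ltbp3 at chr19:5740650-5740899, Tgfbi at chr13:56609336-56609522 and Tgfb1 at chr7:25686752-25687001.
Tgfb2: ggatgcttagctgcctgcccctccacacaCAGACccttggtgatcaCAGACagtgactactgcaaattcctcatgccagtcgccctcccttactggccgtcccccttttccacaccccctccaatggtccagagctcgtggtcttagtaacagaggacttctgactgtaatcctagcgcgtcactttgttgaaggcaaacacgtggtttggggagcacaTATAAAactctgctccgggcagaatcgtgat
Tgfbr2: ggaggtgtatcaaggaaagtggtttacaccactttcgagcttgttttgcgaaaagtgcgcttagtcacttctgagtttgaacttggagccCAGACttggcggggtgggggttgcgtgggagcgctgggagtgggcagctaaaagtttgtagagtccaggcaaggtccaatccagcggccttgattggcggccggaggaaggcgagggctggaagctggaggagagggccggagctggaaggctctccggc
Ltbp3: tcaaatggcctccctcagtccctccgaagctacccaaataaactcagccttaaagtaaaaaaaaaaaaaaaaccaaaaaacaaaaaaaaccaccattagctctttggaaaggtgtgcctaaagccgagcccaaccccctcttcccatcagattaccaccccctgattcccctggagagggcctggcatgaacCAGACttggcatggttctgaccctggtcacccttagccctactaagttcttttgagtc
Tgfbi: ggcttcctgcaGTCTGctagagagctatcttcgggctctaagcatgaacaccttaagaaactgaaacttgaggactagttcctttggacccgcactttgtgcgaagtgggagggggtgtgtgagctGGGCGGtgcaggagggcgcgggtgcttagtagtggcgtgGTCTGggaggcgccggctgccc
Tgfb1: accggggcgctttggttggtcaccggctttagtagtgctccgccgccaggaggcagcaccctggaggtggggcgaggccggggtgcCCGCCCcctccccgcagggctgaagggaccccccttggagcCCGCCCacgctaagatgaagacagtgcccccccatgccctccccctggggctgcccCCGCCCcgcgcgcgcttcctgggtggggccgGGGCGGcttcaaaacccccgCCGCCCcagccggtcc

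CAGAC was in each of the first 4 windows and not in that of Tgfb1. It was also in the promoter of Ltbp2, with 2 matches, and in 1 of the Tgfbr1 promoters, 2 genes whose groups overlapped at 6 weeks. The Tgfb1 window held GGGCGG 5 times and had a GC content of 75.2%. Tgfb2 was the only member with TATAAA, which began 31 bases before its start site. RefSeq promoters were matched for 8 of the 10 genes, with 11 start sites, and Tgfb3 and Tgfbr3 had no entry. Over whole windows of 250 bases, CAGAC was in 6 of the 11 promoters, against 42.2% of 32851 promoters of all genes. GGGCGG was in 7 of 11, against 32.7%, and TATAAA in 1 of 11, against 12.4%. The 7 promoters with GGGCGG belong to 5 genes, because Ltbp4 has several start sites, some with overlapping windows. AP-1 sites (TGANTCA) and cAMP response elements (TGACGTCA) were in 0 of 11, and in 6.75% and 1.55% of all promoters. A match is a run of letters only, and no binding was measured.

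Tgfb2 (chr1:186622792-186705989, minus strand, mm10) encodes the ligand that depends most on betaglycan for binding its receptor. In Control_6w its level was 13.5, 7.88, 6.97 and 9.02 CPM in replicates 1 to 4, and in IRR_6w it was 22.8, 14.7, 28.6 and 22.2 CPM. Every irradiated library lay above every control, with replicate 2 of IRR_6w closest to replicate 1 of Control_6w. The means were 22.1 ± 5.71 and 9.33 ± 2.88 CPM (SD, n = 4 each). The log2 fold change was 1.24 (SE 0.359), the only member with a fold above 2 at 6 weeks, with an adjusted p of 0.201 in edgeR. With DESeq2 it passed as a DEG, at 1.26 (SE 0.386, adjusted p = 0.0448) on all libraries and 1.24 (SE 0.365, adjusted p = 0.0331) on the 6 week libraries alone. On all libraries DESeq2 called many more of all tested genes at 6 weeks than edgeR did. The adjusted p of Tgfb2 ranged from 0.0331 to 0.719 over 24 alternatives, and its unadjusted p stayed under 0.05 in all 24. Against Control_6w replicate 4 alone, an alternative added after seeing the data, the value was 1.27 with an unadjusted p over 0.05. An antisense gene shares 2.14% of its exonic bases.

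At 1 day Tgfb2 was at 14.7, 13.1 and 15.2 CPM in Control_1d and at 12.81, 12.95 and 34.2 CPM in IRR_1d. Only replicate 3, the library with high atrial genes, was above the controls. The log2 fold change of 0.48 (SE 0.409, adjusted p = 1 in edgeR) was -0.15 without that library. The irradiation effect at 6 weeks minus that at 1 day was 0.76 on the log2 scale (95% interval -0.39 to 1.92, adjusted p = 0.99 in edgeR).

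Tgfb1 (chr7:25687002-25705077, plus strand) encodes the ligand most often measured in fibrosis. Its level was 36.3, 30.5 and 52.7 CPM in Control_1d and 34.4, 23.9 and 33.1 CPM in IRR_1d, with a log2 fold change of -0.39 (SE 0.378, adjusted p = 1 in edgeR). At 6 weeks it was 15.4, 43.5, 31.3 and 36.2 CPM in the controls and 33.9, 49.9, 32.5 and 21.9 CPM in IRR_6w, with a log2 fold change of 0.13 (SE 0.327, adjusted p = 0.938 in edgeR). The groups overlapped at both times. The value at 1 day was -0.10 without Control_1d replicate 3, and that at 6 weeks was -0.12 without Control_6w replicate 1 and 0.30 without Control_6w replicate 2. The 95% interval of the log2 fold change at 6 weeks ran from -0.57 to 0.83, so that a moderate change of either sign was not detectable with these libraries.

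Tgfb3 (chr12:86056745-86079041, minus strand), the third ligand, was at 11.2, 14.2 and 23.6 CPM in Control_1d and at 23.2, 15.1 and 47.9 CPM in IRR_1d. In Control_6w it was at 12.1, 22.6, 10.6 and 22.0 CPM and in IRR_6w at 30.8, 22.0, 1.08 and 15.0 CPM. Replicate 3 of IRR_6w, one of the libraries with many genes at 0, had only 17 counts of Tgfb3. The log2 fold changes were 0.82 (SE 0.761, adjusted p = 1 in edgeR) at 1 day and 0.04 (SE 0.655, adjusted p = 0.992 in edgeR) at 6 weeks. The former was 0.23 without IRR_1d replicate 3 and 1.21 without Control_1d replicate 3. The latter was -0.57 without the 3 libraries with other tissue and 0.65 without the 3 with many zeros. Other annotated transcripts on the opposite strand share 12.4% of its exonic bases, and whether counting used strand is not given in the sources used here.

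Per length, on the FPKM scale, Tgfb1 gave the highest mean share of the summed ligand transcripts in Control_1d, Control_6w and IRR_6w, and Tgfb3 in IRR_1d. In IRR_1d replicate 3 Tgfb3 made up 53.2% and Tgfb1 24.7%, and without it the means were 41.1% for Tgfb3 and 42.2% for Tgfb1 (n = 2). The share of Tgfb2 was 16.9% ± 3.32 in Control_1d (SD, n = 3), 18.5% ± 4.21 in IRR_1d (n = 3), 13.9% ± 8.14 in Control_6w (n = 4) and 26.5% ± 12.6 in IRR_6w (n = 4). Shares of Tgfb2 overlapped between Control_6w (8.15% to 26.0%) and IRR_6w (13.4% to 42.2%). The highest of them, 42.2%, belonged to IRR_6w replicate 3, where Tgfb3 was at 1.08 CPM.

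**Figure D2:**
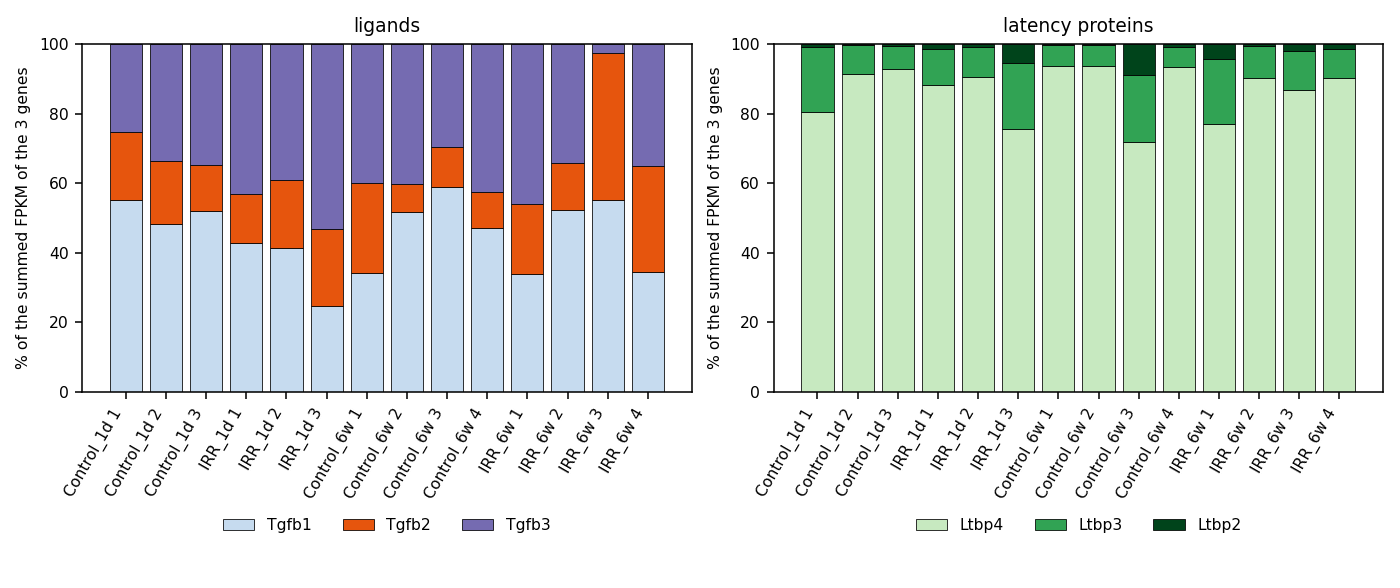
Stacked bars give, for each of the 14 libraries on the x axis, the share of each ligand (left) and of Ltbp2, Ltbp3 and Ltbp4 (right) in the summed FPKM of the 3 genes of the panel, in percent on the y axis. Ltbp4 makes up 71.9% to 93.8% of the sum of these 3 in every library, with Ltbp1 not included, while the ligand shares vary more.

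Tgfbr2 (chr9:116084293-116175360, minus strand) encodes the type II receptor that binds the ligand. It was at 106, 98.9 and 106 CPM in Control_1d and at 135, 129 and 234 CPM in IRR_1d. In Control_6w it was at 140, 119, 114 and 130 CPM and in IRR_6w at 235, 154, 195 and 190 CPM. The groups were apart at both times, and Tgfbr2 was the only member of which this held.

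The log2 fold change of Tgfbr2 was 0.68 (SE 0.265, adjusted p = 1 in edgeR) at 1 day and 0.62 (SE 0.229, adjusted p = 0.396 in edgeR) at 6 weeks. These are folds of 1.60 and 1.54, below the limit of 2. Without IRR_1d replicate 3 the value at 1 day was 0.35 and no longer had an unadjusted p under 0.05. Leaving out this library, the highest of its group, cannot make the groups overlap. Without IRR_6w replicate 1 the value at 6 weeks was 0.51, just past that limit. Its effects at the 2 times differed by -0.06 on the log2 scale (95% interval -0.80 to 0.69, adjusted p = 0.997 in edgeR).

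Tgfbr1 (chr4:47353222-47414931, plus strand), the type I receptor kinase, was at 40.4, 49.1 and 30.0 CPM in Control_1d and at 26.4, 43.8 and 68.0 CPM in IRR_1d. In Control_6w it was at 56.8, 32.2, 89.8 and 42.6 CPM and in IRR_6w at 53.0, 42.6, 98.5 and 116 CPM. The groups overlapped at both times, with log2 fold changes of 0.21 (SE 0.458, adjusted p = 1 in edgeR) and 0.49 (SE 0.396, adjusted p = 0.780 in edgeR). At 1 day the value was -0.18 without IRR_1d replicate 3 and 0.50 without IRR_1d replicate 1. The high control at 6 weeks was replicate 3, the library with thymus genes. Without it, IRR_6w replicate 1 and IRR_1d replicate 3 the log2 fold change at 6 weeks was 0.97 (adjusted p = 0.349 in edgeR). Without the 3 libraries with many zeros, 2 of them IRR_6w replicates 3 and 4, it was -0.21.

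Tgfbr3 (chr5:107106570-107289629, minus strand) encodes betaglycan, a co-receptor without kinase activity. It was at 148, 93.0 and 68.6 CPM in Control_1d, at 99.2, 94.1 and 116 CPM in IRR_1d, at 72.6, 60.6, 57.9 and 68.2 CPM in Control_6w and at 114, 57.1, 56.3 and 57.7 CPM in IRR_6w. The irradiation groups overlapped at both times, with log2 fold changes of -0.0024 (SE 0.326, adjusted p = 1 in edgeR) and 0.14 (SE 0.283, adjusted p = 0.924 in edgeR). In IRR_6w a single library, replicate 1, was above the controls, and without it the value at 6 weeks was -0.19. At 1 day the value was 0.35 without Control_1d replicate 1 and -0.19 without Control_1d replicate 3.

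Tgfbr3 was the only member with an unadjusted p under 0.05 between the control groups. Its level in Control_6w was 64.8 ± 6.74 CPM (SD, n = 4) against 103 ± 40.6 CPM in Control_1d (n = 3). The log2 fold change was -0.67 (SE 0.304, adjusted p = 0.902 in edgeR), where 1.75% of all tested genes were lower with p under 0.05. The groups overlapped, and without Control_1d replicate 1, the library with the most genes at 0, the value was -0.32 and had an unadjusted p over 0.05.

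Ltbp2 (chr12:84783212-84876532, minus strand) encodes a fibrillin-binding matrix protein of the family that, unlike LTBP3 and LTBP4, is not known to bind latent TGF-beta. It was at 3.13, 2.31 and 6.08 CPM in Control_1d and at 11.7, 6.86 and 66.1 CPM in IRR_1d. The groups did not overlap, although replicate 2 of IRR_1d was just above replicate 3 of Control_1d. Its log2 fold change of 2.87 (SE 0.998, adjusted p = 1 in edgeR) was the highest of the 10 genes at either time. Without IRR_1d replicate 3 it was 1.27, with an unadjusted p over 0.05.

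In Control_6w Ltbp2 was at 3.35, 4.66, 28.7 and 11.5 CPM and in IRR_6w at 47.9, 6.74, 18.1 and 11.8 CPM. The groups overlapped, and the highest library of each was one with genes of other tissue: replicate 3 of the controls and replicate 1 of IRR_6w. Its log2 fold change was 0.80 (SE 0.804, adjusted p = 0.825 in edgeR), and it was 0.013 without IRR_6w replicate 1 and 1.70 without Control_6w replicate 3. The effect at 6 weeks minus that at 1 day was -2.07 (95% interval -4.73 to 0.59, adjusted p = 0.99 in edgeR). An antisense gene shares 9.34% of its exonic bases.

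Ltbp3 (chr19:5740904-5758532, plus strand) encodes a protein that tethers latent TGF-beta in the matrix. It was at 40.7, 31.6 and 47.0 CPM in Control_1d and at 57.4, 37.0 and 149 CPM in IRR_1d. The groups overlapped, and the log2 fold change of 1.03 (SE 0.475, adjusted p = 1 in edgeR) was 0.25 without replicate 3 of IRR_1d. In Control_6w it was at 32.6, 38.1, 39.8 and 42.6 CPM and in IRR_6w at 135, 53.6, 59.9 and 45.6 CPM. All irradiated libraries were above all controls, replicate 4 of IRR_6w by the least. Its log2 fold change was 0.94 (SE 0.411, adjusted p = 0.520 in edgeR). Without replicate 1 of IRR_6w it was 0.47 and had an unadjusted p over 0.05.

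Ltbp4 (chr7:27305136-27337692, minus strand), which encodes another tether of latent ligand and an elastic fibre protein, was the most abundant member. It was at 220, 441.5 and 832 CPM in Control_1d, at 601, 483 and 735 CPM in IRR_1d, at 638, 769, 185 and 859 CPM in Control_6w and at 685, 664, 586 and 602 CPM in IRR_6w. The lowest levels were in Control_6w replicate 3 and Control_1d replicate 1, and the groups overlapped at both times. Its log2 fold changes were 0.28 (SE 0.504, adjusted p = 1 in edgeR) and 0.05 (SE 0.436, adjusted p = 0.983 in edgeR). The sign of both turned with the libraries used. At 1 day the value was -0.07 without Control_1d replicate 1 and 0.90 without Control_1d replicate 3, and at 6 weeks it was -0.25 without Control_6w replicate 3 and 0.26 without Control_6w replicate 4.

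Tgfbi (chr13:56609523-56639562, plus strand) encodes a secreted matrix protein first found as a transcript induced by TGF-beta. At 1 day it was at 37.1, 27.9 and 35.4 CPM in the controls and at 44.3, 29.5 and 71.9 CPM in IRR_1d, which overlapped (log2 fold change 0.54, SE 0.349, adjusted p = 1 in edgeR). This was 0.15 without IRR_1d replicate 3 and 0.82, with an unadjusted p under 0.05, without IRR_1d replicate 2. In Control_6w it was at 34.4, 37.5, 16.7 and 39.0 CPM and in IRR_6w at 65.3, 53.2, 47.0 and 56.0 CPM. No irradiated library was as low as any control, and the lowest control was replicate 3. For the late time the log2 fold change was 0.80 (SE 0.303, adjusted p = 0.421 in edgeR). With the 3 libraries that held other tissue left out it was 0.49. The unadjusted p stayed under 0.05 in the same 24 alternatives, and the adjusted p ranged from 0.208 to 0.719. Against Control_6w replicate 4 alone the value was 0.49 with an unadjusted p over 0.05.

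**Figure D3:**
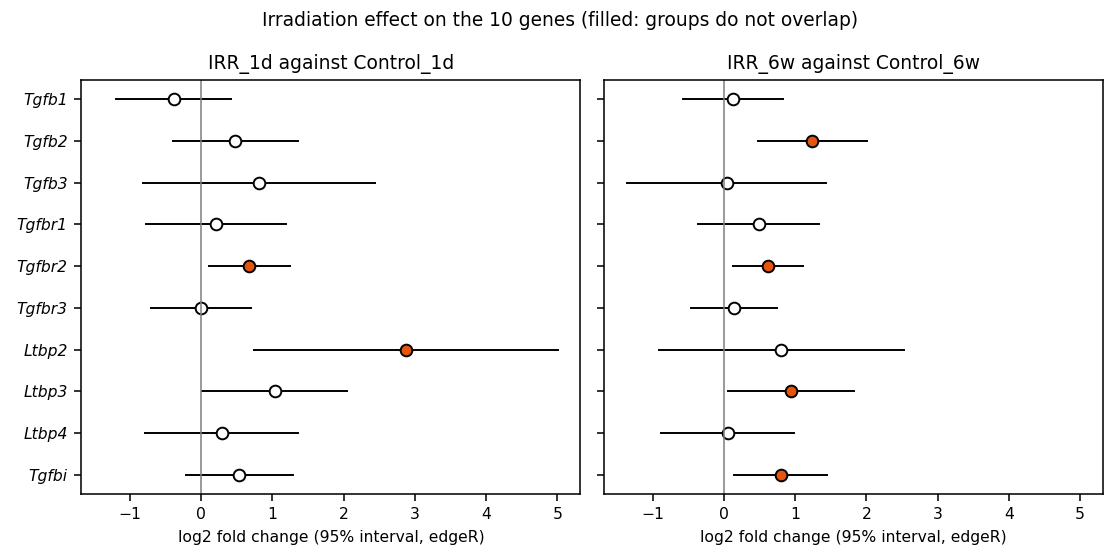
Points give the edgeR log2 fold change of each gene after irradiation on the x axis, at 1 day (left) and 6 weeks (right), with 95% intervals as bars and the 10 genes on the y axis. Filled points mark genes whose groups did not overlap: Tgfbr2 and Ltbp2 at 1 day, and Tgfb2, Tgfbr2, Ltbp3 and Tgfbi at 6 weeks.

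Levels can be compared between the genes only per length. In Control_6w, Ltbp4 was highest at 94.8 ± 46.3 FPKM (SD, n = 4), followed by Tgfbr2 at 15.4 ± 1.38 FPKM and Tgfbr3 at 9.90 ± 1.03 FPKM. Tgfbr1 (8.47 ± 3.84 FPKM), Tgfbi (8.47 ± 2.74 FPKM), Ltbp3 (7.38 ± 0.811 FPKM) and Tgfb1 (6.27 ± 2.37 FPKM) came next, with differences smaller than their spread. Tgfb3 was at 4.97 ± 1.88 FPKM, within the spread of Tgfb1. Tgfb2 (1.61 ± 0.497 FPKM) and Ltbp2 (1.47 ± 1.43 FPKM) were lowest and did not differ beyond their spread. The deposited length of Ltbp3 is 5190 bases, shorter than the 9069 exonic bases of its annotation, and with the latter it was at 4.22 ± 0.464 FPKM. For the other 9 genes both lengths were the same.

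With time in the controls, 0.0% of all tested genes and none of the 10 were DEGs. Tgfbr2 was higher in all 4 Control_6w libraries than in any Control_1d library (log2 fold change 0.28, SE 0.248, adjusted p = 0.923 in edgeR), where 3.38% of all genes were higher without overlap. Between IRR_6w and IRR_1d, 0.0374% of all genes and none of the 10 were DEGs, no member had an unadjusted p under 0.05 and all 10 overlapped. Tgfbr1 had the highest of these fold changes, 0.75 on the log2 scale (SE 0.435, adjusted p = 0.99 in edgeR). The difference of the irradiation effects at both times gave no DEG among the 10 and 0.0% among all genes, and no member had an unadjusted p under 0.05.

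Across the 14 libraries the levels of some members ran together. Spearman's rho was 0.84 for Ltbp3 with Tgfbi and 0.83 for Tgfbr2 with Tgfbi, the highest of the 45 pairs, and -0.72 for Tgfb1 with Tgfbr1, the lowest. The libraries share their groups and the same scaling, so these are descriptions over 14 points. IRR_1d replicate 3 and IRR_6w replicate 1, both with high atrial genes, had the highest levels of Tgfb3, Tgfbr2, Ltbp2, Ltbp3 and Tgfbi.

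**Figure D4:**
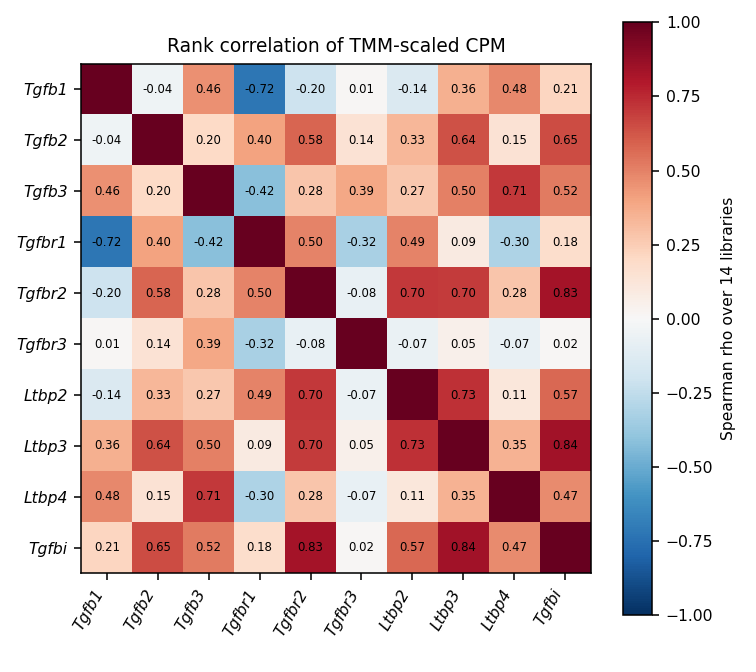
The grid gives Spearman's rho for each pair of the 10 genes, listed on both axes, over TMM-scaled CPM in 14 libraries, with the color scale from -1 to 1. Tgfbr2, Ltbp2, Ltbp3 and Tgfbi have pairwise values from 0.57 to 0.84, while Tgfbr1 is negative with Tgfb1 at -0.72.

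Among the 16034 genes, those most like each member in rank were as follows. Tgfb2 was closest to Sertad4 (rho 0.92). Tgfbi was closest to Tnfrsf1a (0.96), a TNF receptor. Ltbp3 was closest to Ldlrad4 (0.95), a gene induced by TGF-beta that restrains SMAD activation, and Ltbp2 to Phlda3 (0.93), a p53 target. For Tgfbr2 it was Ptgis (0.90), the prostacyclin synthase, for Tgfb3 Evc (0.96), for Tgfbr1 Ywhab (0.95), for Tgfbr3 Abi3bp (0.94), for Ltbp4 Ramp2 (0.91) and for Tgfb1 Rrp7a (0.90). No tested gene outside the 10 had a higher value with the member than the one named, and the values describe these 14 libraries.

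The genes around the 10 members in the pathway were followed through lists. Of 22 genes that TGF-beta is known to induce, 12 were higher at 6 weeks with an unadjusted p under 0.05, none was lower, and the median log2 fold change was 1.32. Over all tested genes 5.43% were higher at that limit and 3.37% lower, with a median of -0.09. Without the 3 libraries with many zeros, 5 of the 22 were higher and the median was 0.88. Fn1, which encodes fibronectin, was the only DEG of all lists, at 549 ± 150 CPM in IRR_6w against 90.5 ± 31.6 CPM in Control_6w (SD, n = 4 each). Its log2 fold change was 2.60 (SE 0.390, adjusted p = 0.0188 in edgeR). It was no longer a DEG without Control_6w replicate 1 (adjusted p = 0.0860 in edgeR) or 2 (0.115), without IRR_6w replicate 3 (0.0670) or 4 (0.0567), or without the 3 libraries with many zeros (0.216), at log2 fold changes of 2.47 to 2.65. Against Control_6w replicate 4 alone it was 1.995 (adjusted p = 1 in edgeR), and 2 of the 22 genes were higher at an unadjusted p under 0.05. Col3a1, the type III collagen, was at 813 ± 195 against 273 ± 72.1 CPM (log2 fold change 1.57, SE 0.371, adjusted p = 0.109 in edgeR). Without the 3 libraries with other tissue Col3a1 also passed as a DEG, at 1.51 (adjusted p = 0.00930 in edgeR), as it did without IRR_1d replicate 3 alone (adjusted p = 0.0282 in edgeR). It did not without the 3 libraries with many zeros, where no tested gene was a DEG. Acta2, the smooth muscle actin of myofibroblasts, was named after its value was seen. Its log2 fold change was -0.35 (SE 0.643, adjusted p = 0.909 in edgeR), and -0.76 without IRR_6w replicate 1. The other 21 of the 22 induced genes had positive values at 6 weeks.

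At 1 day, 3 of the 22 induced genes were higher with an unadjusted p under 0.05, where 1.94% of all genes were, and the median was 0.77. With IRR_1d replicate 3 left out none was and the median was 0.03. Comp, a cartilage matrix gene, was at 20.9 ± 22.0 CPM in IRR_1d against 2.38 ± 1.92 CPM in Control_1d (SD, n = 3 each), with a log2 fold change of 3.12 (SE 1.02) that was 1.91 without that library. Fn1 was at 229 ± 154 against 92.6 ± 17.3 CPM, with 1.31 (SE 0.432) and 0.61 without it. Eln, elastin, was at 172 ± 202 against 53.9 ± 28.3 CPM, with 1.68 (SE 0.690) and 0.05 without it. Each had an edgeR adjusted p of 1. In IRR_1d replicate 3 the summed level of 7 cartilage genes was 40.12 CPM, against at most 11.46 CPM in any other library. Its part in the result was not tested.

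Of the 18 genes for latency and activation outside the members, 17 were tested. At 6 weeks 9 were higher with an unadjusted p under 0.05 and none lower, with a median log2 fold change of 0.93, beside the 5.43% and 3.37% of all genes. Without the 3 libraries with many zeros 3 were higher, with a median of 0.83. Against Control_6w replicate 4 alone the median was 0.85, beside 0.09 over all genes. At 1 day 1 was higher, beside 1.94% of all genes, and the median of 0.50 was 0.22 without IRR_1d replicate 3. The leading genes at 6 weeks were Mmp2, a gelatinase, with 1.38 (SE 0.342, adjusted p = 0.118 in edgeR), Fbn1, the fibrillin that anchors LTBP proteins, with 1.45 (SE 0.368, adjusted p = 0.127), and Itgb3, an integrin chain, with 2.33 (SE 0.602, adjusted p = 0.136). Without the 3 libraries with other tissue Mmp2 (adjusted p = 0.0486 in edgeR) and Fbn1 (0.0224) passed as DEGs. Neither did without the 3 libraries with many zeros, where no tested gene was a DEG. Mmp2 was also the one at 1 day, with 1.91 (SE 0.401, adjusted p = 0.365 in edgeR), and had 306 ± 81.0 CPM in IRR_1d against 81.3 ± 23.4 CPM in Control_1d (SD, n = 3 each). Thbs1, thrombospondin, named at 1 day by its rank but overlapping there, was at 366 ± 257 CPM in IRR_6w and 70.9 ± 32.2 CPM in Control_6w (log2 fold change 2.37, SE 0.673, adjusted p = 0.187 in edgeR). Its value was 1.04 without the 3 libraries with many zeros.

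Of 14 SMAD genes, 1 was higher with an unadjusted p under 0.05 at each time, beside 1.94% and 5.43% of all genes. Their medians were 0.01 and 0.15, beside 0.06 and -0.09 over all genes. Smad6, an inhibitory SMAD, was the one at 1 day (log2 fold change 1.41, SE 0.461, adjusted p = 1 in edgeR), and was at 0.83 without IRR_1d replicate 3. Skil, a SMAD repressor, was the one at 6 weeks (0.84, SE 0.384, adjusted p = 0.555 in edgeR), and was at 0.01 without the 3 libraries with many zeros. Smad3, the transducer of TGF-beta signals, had -0.54 (SE 0.324, adjusted p = 0.697 in edgeR) at 6 weeks.

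Of 10 co-receptors and extracellular inhibitors, 3 were higher with an unadjusted p under 0.05 at 1 day, beside 1.94% of all genes, with a median of 0.42. Without IRR_1d replicate 3 none was and the median was 0.26. At 6 weeks 0 were higher, beside 5.43%, with a median of 0.16. Those at 1 day were Lrg1, which modulates endothelial TGF-beta signalling, Fmod, a small proteoglycan, and Bgn, biglycan, each with an edgeR adjusted p of 1. Lrg1 was at 77.8 ± 33.2 against 30.7 ± 12.2 CPM, with a log2 fold change of 1.35 (SE 0.497) and of 0.96 without IRR_1d replicate 3. Fmod was at 38.1 ± 34.1 against 4.71 ± 1.20 CPM, with 3.02 (SE 1.24) and 2.03 without it. Bgn was at 729 ± 549 against 356 ± 80.1 CPM, with 1.03 (SE 0.434) and 0.22 without it. At 6 weeks Bgn had a log2 fold change of 0.74 (SE 0.374, adjusted p = 0.608 in edgeR). Fkbp1a, which binds the type I receptor, had 0.30 (SE 0.252, adjusted p = 0.787 in edgeR), and 0.46 without IRR_6w replicate 1. Htra3, a secreted protease, was at 89.6 ± 48.0 CPM in IRR_6w against 151 ± 58.6 CPM in Control_6w (SD, n = 4 each), with -0.75 (SE 0.409, adjusted p = 0.645 in edgeR). Its value was -1.14 without IRR_6w replicate 1 and -1.39 without the 3 libraries with other tissue, both with an unadjusted p under 0.05 and with adjusted p of 0.356 and 0.0850 in edgeR.

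In the BMP, activin and GDF branch 25 of 27 genes were tested, 6 of them higher with an unadjusted p under 0.05 at 1 day and 5 at 6 weeks, beside 1.94% and 5.43% of all genes, with medians of 0.32 and 0.40. At 1 day 2 were higher without IRR_1d replicate 3, with a median of 0.05. At 6 weeks 3 were without the 3 libraries with many zeros, with a median of 0.24. Against Control_6w replicate 4 alone the 6 week median was 0.43, beside 0.09 over all genes. Gdf15, a distant family member induced by cell stress, was at 12.2 ± 2.65 CPM in IRR_1d against 0.687 ± 0.608 CPM in Control_1d (SD, n = 3 each; log2 fold change 4.16, SE 0.948, adjusted p = 0.551 in edgeR). At 6 weeks it was at 16.9 ± 8.22 against 1.28 ± 0.679 CPM (3.72, SE 0.792, adjusted p = 0.0703 in edgeR), and it passed as a DEG without IRR_6w replicate 1 (3.94, adjusted p = 0.0484 in edgeR). Gdf15 was not a DEG without the 3 libraries with many zeros, where no tested gene was. Id2 (1.40, SE 0.446) and Inhbb (1.26, SE 0.445), a BMP target and an activin chain, led at 1 day after Gdf15, each with an edgeR adjusted p of 1. Without IRR_1d replicate 3 they were at 0.76 and 1.27. Bmp10, an atrial gene named after its value was seen, was also among the 6, at 262 ± 445 CPM in IRR_1d against 0.731 ± 1.27 CPM in Control_1d. The summed atrial genes were high in IRR_1d replicate 3, and without it Bmp10 had an unadjusted p over 0.05. Fstl1, a secreted follistatin-like protein (1.31, SE 0.375, adjusted p = 0.192 in edgeR), and Bmp2 (1.56, SE 0.502, adjusted p = 0.282 in edgeR) followed at 6 weeks.

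**Figure D5:**
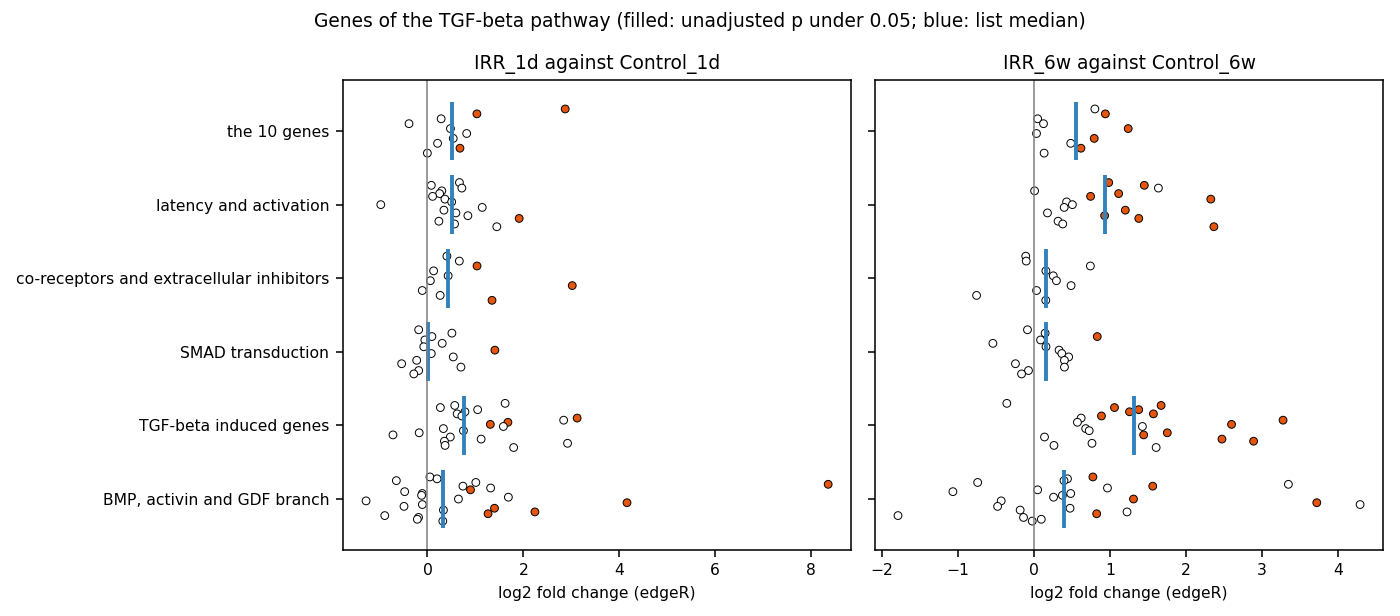
Each point is a gene, with its edgeR log2 fold change after irradiation on the x axis at 1 day (left) and 6 weeks (right), and the y axis lists the 10 members and the 5 pathway lists. Filled points have an unadjusted p under 0.05 and blue bars are medians, which at 6 weeks lie at 0.55 for the members and 1.32 for the induced genes.

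Cell type markers stand beside these results. All 8 macrophage markers were detected in every library and summed to 1124 to 1491 CPM in IRR_6w against 262.8 to 674.1 CPM in Control_6w. At 1 day the sums were 661.0 to 802.6 CPM in IRR_1d and 602.9 to 825.7 CPM in Control_1d. All 8 fibroblast markers, one of which (Col1a1) is also among the induced genes, summed to 1569 to 1942 CPM in IRR_6w and 754.2 to 1837 CPM in Control_6w, with the lowest in the library with thymus genes. At 1 day they summed to 1810 to 3223 CPM in IRR_1d, the highest of all 14 libraries being replicate 3, and to 1514 to 2163 CPM in Control_1d. The 8 cardiomyocyte markers summed to 8621 to 28040 CPM in IRR_6w and 4759 to 39410 CPM in Control_6w, and at 1 day to 15590 to 32940 CPM in IRR_1d and 26830 to 40680 CPM in Control_1d. Endothelial markers were lower in every IRR_1d library (1354 to 1437 CPM) than in any Control_1d library (1493 to 1929 CPM), and overlapped at 6 weeks (1458 to 2160 against 667.4 to 2037 CPM). Smooth muscle and pericyte markers overlapped at both times, at 1639 to 2604 against 2016 to 2479 CPM at 1 day and 947.6 to 2375 against 975.2 to 2366 CPM at 6 weeks. The part of these cell types in the levels of the 10 genes was not tested.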

How the data were processed

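Heart RNA of 14 mice was sequenced by the authors as paired reads. Per the labels, reads were checked with FastQC 0.11.8, trimmed with Trim Galore 0.6.1 and aligned to mm10 with STAR 2.5.0a, and the authors deposited one table of whole-number counts per gene with gene lengths, made with HTSeq. Strandedness of the libraries or the counting is not given in the sources used here. The deposited counts were tested here with edgeR 4.0.16 (R 4.3.3): 16034 of 54532 genes passed filterByExpr, libraries were scaled by TMM, and a quasi-likelihood model of the 4 groups was fitted to all 14 libraries. CPM and FPKM were computed here from counts, TMM-scaled totals and the deposited lengths. DEGs were called by 2 limits together: fold past 2 or 0.5, and p under 0.05 after Benjamini-Hochberg adjustment across the tested genes. DESeq2 1.42.0, limma 3.58.1 (voom), other scaling, no filter, pairwise fits, a replicate block and left-out libraries were alternatives. The test was checked on simulated data. Coordinates matched the GENCODE vM21 annotation for all 10 genes. Named genes were the 10 members and, per pathway list and time, the 3 with the smallest p and any DEG, except 1 gene that is not reported here. The members, lists and markers were chosen with earlier results of these data known. Counts and medians of the lists without the libraries that stood apart were added after seeing the data. Library numbers were given by the labels, and one gene listed as Ccn2 is named Ctgf in the file.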

Additional observations from a re-analysis of the deposited data

Results flagged for a closer look

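Of 20 sets of 4 libraries (10 genes in Control_6w and in IRR_6w), 2 had a library far from the others by Dixon's test, where chance alone gives about 1 in 20. Tgfbr3 in IRR_6w replicate 1 was at 113.8 CPM, against 56.29 to 57.69 CPM in the other 3 libraries of the group, and the gap was 0.976 of the range. Ltbp3 in the same library was at 135.0 CPM, against 45.64 to 59.91 CPM, a gap of 0.840 of the range. IRR_6w replicate 1 also had the highest summed levels of atrial (2993 CPM), lung epithelial (380.2 CPM), white fat (3364 CPM) and brown fat (1212 CPM) genes of all 14 libraries. Their part in the 2 values was not tested. Groups of 3 libraries were not tested in this way, so that IRR_1d replicate 3 could not be judged by it.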

How the results depend on the processing

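No member passed as a DEG in any of the 5 comparisons under any alternative with adjusted p, except Tgfb2 at 6 weeks, which made the count 1 with DESeq2 on all libraries and 1 with DESeq2 on 2 groups. With unadjusted p and the same fold limits the count was 2 at 1 day (Ltbp2 and Ltbp3) and 1 at 6 weeks (Tgfb2), of 358 and 871 genes among all 16034. The number of members with an unadjusted p under 0.05, a count added after seeing the data, was 3 at 1 day, and 1 with limma-voom, 0 without the 3 libraries with other tissue and 0 without the 3 with many zeros. Leaving out 1 library at a time gave 0 to 4, with 0 without IRR_1d replicate 3 and 1 without Control_1d replicate 2. At 6 weeks it was 4, and 2 to 4 with 1 library left out, the lowest without IRR_6w replicate 1, and 0 without the 3 controls with testis genes, an alternative added after seeing the data, where 1 control is left.

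The replicate numbers were not taken to pair the mice in the main fit. Deviations of same-numbered libraries correlated at -0.364 to 0.422 over 19 pairs, and those of other pairs at -0.489 to 0.507. Such overlapping ranges show no pairing by number but cannot exclude one. With a replicate block 2 members had an unadjusted p under 0.05 at 1 day and 3 at 6 weeks, and none was a DEG.

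At 1 day the log2 fold change of Tgfbr3 turned positive with library totals (0.0049), no low count filter (0.0169), DESeq2 on 2 groups (0.00019), limma-voom (0.067), edgeR on 2 groups (0.0012), the replicate block (0.083) and without libraries with many zeros (0.35), and was -0.19 to 0.35 with 1 library left out. Without the libraries with other tissue, Tgfb2 was at -0.15 and Tgfbr1 at -0.18, and without those with many zeros Ltbp4 was at -0.070. With 1 library left out these 3 ranged from -0.15 to 0.73, -0.18 to 0.50 and -0.069 to 0.90. At 6 weeks Tgfb3 was at -0.54 with limma-voom and -0.57 without the libraries with other tissue, where Tgfbr3 was at -0.24 and Ltbp4 at -0.29, and Tgfbr1 was at -0.21 without those with many zeros. Without the 3 controls with testis genes, Tgfb1 was at -0.076, Tgfb3 at -0.34 and Ltbp4 at -0.45. With 1 library left out, Tgfb1 ranged from -0.12 to 0.30, Tgfb3 from -0.40 to 0.43, Tgfbr3 from -0.19 to 0.23 and Ltbp4 from -0.25 to 0.26. For the change in the irradiation effect, Tgfbr2 was at 0.11 with library totals and 0.13 without other tissue, and Ltbp3 at 0.034 and 0.24 in these, 0.015 with limma-voom and 0.26 without the libraries with many zeros. With 1 library left out, Tgfbr2 ranged from -0.24 to 0.27, Ltbp3 from -0.56 to 0.69 and Tgfbi from -0.024 to 0.65. The cause was not tested for these values.

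Scaling by library totals moved the median over all genes, relative to TMM, by 0.070 (1 day), 0.229 (6 weeks), 0.157 (controls), 0.314 (irradiated mice) and 0.155 (change in effect) on the log2 scale. Over all genes, DEGs at 6 weeks numbered 41, and from 0 without the libraries with many zeros, without the 3 controls with testis genes or without any 1 of Control_6w replicates 1 and 2 and IRR_6w replicates 3 and 4, to 328 with DESeq2 on all libraries. At 1 day they numbered 4, and 0 with limma-voom, with edgeR on 2 groups, without the libraries with many zeros and without Control_1d replicate 1 or 2, up to 56 with DESeq2 on 2 groups. Fn1 remained a DEG in 19 of 24 alternatives, and not without the 3 controls with testis genes. With 3 or 4 mice a group, the 95% intervals of the 10 genes span folds on both sides of no change for most members, and Tgfb3 and Ltbp2 have the widest.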
